A study of Mus musculus with 9 samples.

Results

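RNA sequencing of mouse liver tumours given a nanocluster together with an antibody against PD1 was set against tumours of the Control group. The 6 libraries compared were the 3 labelled Co+Len@OVA+anti-PD1 and the 3 labelled Control, out of 9 in the series, and every gene of the deposited table was considered. All mice carried Hepa1-6-luc tumours grown in situ, a luciferase-marked line of mouse hepatoma cells, and tumours were taken on day 14. Mice of the Co+Len@OVA+anti-PD1 group received the nanocluster at 2 mg/mL every 3 days and anti-PD1 at 50 µg per injection every 4 days. The Control group is labelled only as such. The meaning of Co is not stated, and the labels name Len and OVA as parts of the nanocluster, where Len is read here as lenvatinib, the drug of the third sequenced group. That group, Lenvatinib+anti-PD1, received free lenvatinib every 3 days with the same antibody and enters here as a reference. Of 6 treatment groups in the study, 3 were sequenced, and none of these had the nanocluster, the drug or the antibody alone, so the parts of the treatment cannot be told apart. The sources used here do not give the strain, sex or age of the mice. The labels give 3 samples per group and do not say that each library came from its own animal, so p-values measure the spread between these libraries.

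PD1 is an inhibitory receptor on activated T cells, and blocking it releases T cells from inhibition by PD-L1 on tumour and myeloid cells. T cells and natural killer cells that recognise tumour cells release interferon gamma. It acts through JAK kinases and the transcription factors they activate to induce guanylate-binding proteins, chemokines that attract further T cells, and the peptide-loading machinery of MHC class I. Lenvatinib inhibits the kinases of VEGF and FGF receptors, which drive the growth of tumour vessels. Hepatoma cells keep part of the gene programme of the hepatocyte, the liver cell that secretes albumin and most other plasma proteins, runs the urea cycle and makes bile acids. That programme rests on transcription factors such as HNF4A and CEBPA and on nuclear receptors.

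Values are FPKM, read pairs per length of transcript and per size of the library, and summed to 332000 to 373000 per library. Depth is unknown, since FPKM below 1 did not fall on whole fragments. The third library of each group lay between the other 2 for 97.9% of 190 genes (Co+Len@OVA+anti-PD1), 97.7% of 219 genes (Lenvatinib+anti-PD1) and 96.1% of 280 genes (Control) that differed over 4-fold between libraries 1 and 2. For these genes the median absolute log2 difference of the third library from a fitted weighted mean of libraries 1 and 2 was 0.08 to 0.16. Taken in the same way, libraries 1 and 2 of each group lay between the other 2 for 11.3% to 70% of 8 to 101 genes. The third libraries may therefore not be independent replicates, in which case the SE, p-values and intervals from 9 libraries are too small. Not every value followed this, since the summed muscle and squamous markers of Control were highest in library 3. Because of this doubt about the third libraries, counts against Control are given from libraries 1 and 2 alone beside those from 9 libraries. Counts between the 2 treatments are from 9 libraries only. More than 2-fold below both other controls stood 1408 genes in Control library 1, 450 in library 2 and 72 in library 3. The tumour label was checked against markers. Afp, the fetal liver protein of hepatoma cells, was at 239, 233 and 239.7 FPKM in the nanocluster group and 439, 368 and 404 in Control, while the oncofetal genes Gpc3, Igf2 and H19 reached at most 3.4 FPKM in these 6 libraries.

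Cells other than hepatoma cells contributed to the libraries in unequal amounts. The 3 adipocyte markers summed to 42.1, 9.47 and 26.8 FPKM in the nanocluster group and 3.05, 7.73 and 6.7 in Control, with Adipoq and Plin1 each at 0 in at least 1 library. A set of 11 neural genes, chosen after values were seen, summed to 152, 10.6 and 82 against 7.5, 8.04 and 8.64 FPKM. Both sets were highest in library 1 of the nanocluster group, low in its library 2 and between these in library 3. Squamous epithelium markers Krt5 and Krt14 summed to 81, 1.52 and 94.2 FPKM in Control, so library 2 lacked nearly all of this signal. Muscle markers summed to 0.0725, 1.39 and 24.8 FPKM in Control and 21.5, 27 and 25.3 in the nanocluster group. Markers of red cells summed to 666 to 942 against 89.6 to 176 FPKM, and markers of platelets to 65.4 to 66.4 against 16.7 to 21.1, without overlap. In bulk tumour RNA, fewer cells of a type and less RNA per cell cannot be told apart.

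**Figure D1:**
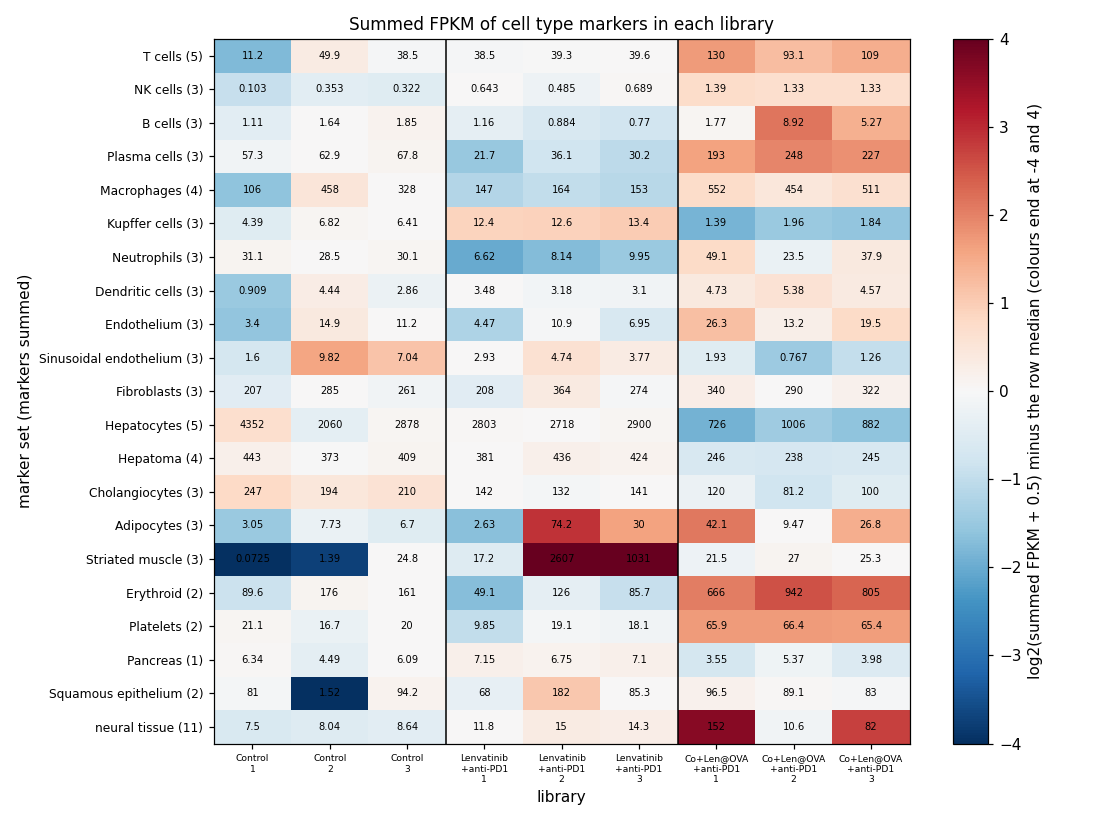
Summed FPKM of the markers of each cell type (rows, number of markers summed in parentheses) in each of the 9 libraries (columns). Numbers are sums in FPKM and colours give log2(sum + 0.5) minus the row median. T cell, plasma cell, red cell and platelet rows are higher in all 3 Co+Len@OVA+anti-PD1 libraries than in all 3 Control libraries, hepatocyte, hepatoma, Kupffer cell and cholangiocyte rows are lower, and neural and adipocyte signal is uneven within the Co+Len@OVA+anti-PD1 group.

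Of 15353 genes tested with limma on log2(FPKM + 0.5), 3209 were higher (20.9%) and 1946 lower (12.7%) in the nanocluster group at an adjusted p under 0.05. With libraries 1 and 2 alone, with 3 residual degrees of freedom, 17 were higher (0.111%) and 63 lower (0.410%), all of them among the 5155. At an unadjusted p under 0.05 that smaller fit gave 2093 higher (13.6%) and 1289 lower (8.40%). Of the 5155 genes, 3303 also had an unadjusted p under 0.05 in libraries 1 and 2 with the same sign. The median difference of all genes was 0.13 on the log2 scale as deposited and 0.02 after median-of-ratios scaling. That scaling moved the split between directions, from 62.3% of calls higher to 45.1%. Every log2 difference below is a difference of group means on the log2(FPKM + 0.5) scale, which understates changes of genes with low values. The groups did not overlap for 49.7% of genes tested, so a lack of overlap alone is common. The 55 gene lists used below hold 696 different genes of the table, of which 661 reached the minimum of 0.5 FPKM on average and were tested. Counts of list members are read against these percentages.

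**Figure D2:**
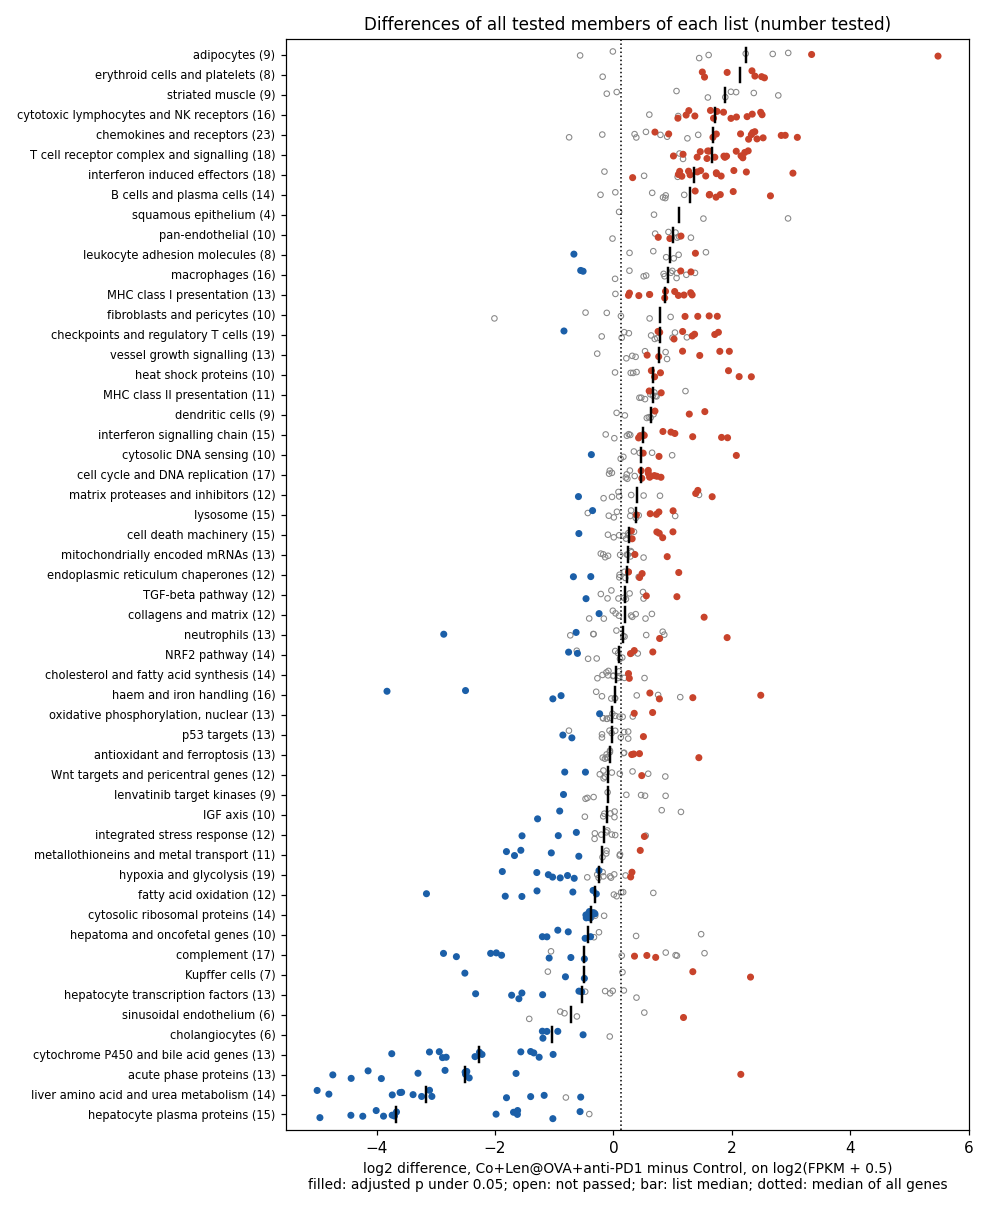
Log2 difference between Co+Len@OVA+anti-PD1 and Control (horizontal axis) of every tested member of the gene lists with at least 4 tested genes (rows), ordered by the list median. Filled points had an adjusted p under 0.05 in 9 libraries and open points did not, black bars are list medians and the dotted line is the median of all genes. Lists of adipocyte, red cell and platelet, and muscle genes have the highest medians (2.23, 2.13 and 1.89), followed by cytotoxic cells, chemokines and T cells (1.66 to 1.72), and the 4 lowest lists, of hepatocyte genes, have medians of -3.66 to -2.26.

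T cell genes were higher in the treated tumours. Cd3e, a signalling chain of the T cell receptor complex, was at 11.8, 8.49 and 9.3 FPKM in the nanocluster group and 0.982, 4 and 2.73 in Control (log2 difference 1.88 ± 0.35 SE, adjusted p = 0.00615). Cd8b1, which encodes the beta chain of CD8, which marks cytotoxic T cells, was at 43.5, 27.9 and 35.6 against 2.62, 12.8 and 9.08 FPKM (log2 difference 2.28 ± 0.47 SE, adjusted p = 0.00908). For both genes every treated library was above every Control library, and Control library 1 was far below the other controls. Cd4, the co-receptor of helper T cells, was at 7.16, 2.65 and 4.72 against 0.586, 3.02 and 2.36 FPKM and did not pass (adjusted p = 0.0805). For Cd4, outside the naming rule, treated library 2 lay below Control library 2. Of 18 T cell receptor and signalling genes 16 rose and 0 fell, with a median log2 difference of 1.66 against 0.13 over all genes. Trbc1, a constant segment of the receptor beta chain that shares sequence with Trbc2 and is uncertain for that reason, rose by 2.19 on the log2 scale. From libraries 1 and 2 alone 0 passed in limma, and 14 were higher at an unadjusted p under 0.05. Without replicate 3 of the nanocluster group, 10 of the 18 rose.

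Genes of cytotoxic function were higher as well. Gzmb, which encodes the protease granzyme B that cytotoxic cells inject into targets, was at 46.9, 67.7 and 56.4 against 3.84, 15.8 and 13.6 FPKM (log2 difference 2.51 ± 0.44 SE, adjusted p = 0.00469). Fasl, which encodes the ligand of the death receptor Fas, was at 3.6, 2.65 and 3.38 against 0.282, 1.08 and 0.845 FPKM (log2 difference 1.64 ± 0.25 SE, adjusted p = 0.00258). Ifng itself was at 4.59, 6.06 and 5.22 against 0.433, 1.57 and 1.09 FPKM (log2 difference 1.99 ± 0.26 SE, adjusted p = 0.00141). The groups did not overlap for these 3 genes, and the highest Control value of Ifng was 1.57 FPKM, under the lowest treated value. Granule genes Nkg7 and Gzmk rose by 2.34 and 2.26 on the log2 scale, and Cst7, which encodes an inhibitor of cathepsins in cytotoxic granules, by 2.08. Of 16 genes of this list 14 rose and 0 fell (median 1.72). In libraries 1 and 2 alone 0 passed and 14 were higher at an unadjusted p under 0.05. The natural killer receptors Ncr1 and Klrb1c were under the minimum and summed with Klre1 to 1.33 to 1.39 against 0.103 to 0.353 FPKM.

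Inhibitory receptors did not move as one. Pdcd1, which encodes PD1, the target of the antibody, was at 33.8, 28.8 and 30.4 against 3.48, 14.6 and 12.4 FPKM (log2 difference 1.77 ± 0.44 SE, adjusted p = 0.0175). Cd274, which encodes its ligand PD-L1, was at 31.2, 28 and 28.5 against 9.55, 18.7 and 15.6 FPKM (log2 difference 1.02 ± 0.21 SE, adjusted p = 0.00855). Both were higher in every treated library, as was the receptor Lag3, at 36.6, 25.2 and 30.2 against 3.21, 16.6 and 12.6 FPKM. Ctla4, an inhibitory receptor abundant on regulatory T cells, was at 8.66, 7.54 and 8.27 against 5.53, 8.73 and 8.18 FPKM (adjusted p = 0.511). Foxp3, the defining transcription factor of regulatory T cells, was at 0.676, 0.61 and 0.568 against 0.0957, 1.7 and 1.1 FPKM (adjusted p = 0.739). The Foxp3 values of the nanocluster group lay inside the Control range, which spanned over 10-fold. Tox, a transcription factor of exhausted T cells named outside the rule, fell from 5.42, 6.59 and 6.35 to 3.8, 2.61 and 3.29 FPKM (log2 difference -0.84 ± 0.14 SE, adjusted p = 0.00428). Control library 1 was not far below the other controls for Tox, as it was for Cd3e (0.982 against 4 and 2.73 FPKM). Which cells the Tox values came from was not tested, so its fall is no measure of exhausted T cells. Of 19 genes of this list 8 rose and 1 fell (median 0.78). With libraries 1 and 2 alone 0 passed in limma (6 higher and 1 lower at an unadjusted p under 0.05). The count risen was 3 without replicate 1 or without replicate 3 of the nanocluster group and 14 without Control replicate 2. Pdcd1 did not pass without replicate 1 or 3 of the nanocluster group (adjusted p = 0.0509 and 0.0541), nor Lag3 without any 1 of its replicates (0.087, 0.0533 and 0.0838).

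Antibody genes rose. Igkc, the constant region of the kappa light chain, was at 182, 235 and 215 against 55, 59.3 and 64.9 FPKM (log2 difference 1.80 ± 0.17 SE, adjusted p = 3.82e-04). Ighm, the heavy chain of IgM, was at 87.9, 41.9 and 62.8 against 6.93, 10.3 and 11.4 FPKM (log2 difference 2.65 ± 0.30 SE, adjusted p = 7.34e-04). Mzb1, a chaperone of antibody-secreting cells, was at 2.94, 3.33 and 3.51 against 0.261, 0.645 and 0.403 FPKM. These 3 were higher in all treated libraries. Ms4a1, which encodes the B cell antigen CD20, was under the minimum. The 3 B cell markers summed to 1.77, 8.92 and 5.27 FPKM in the nanocluster group. Of 14 genes of the list 7 rose and 0 fell (median 1.29), with 0 passing in libraries 1 and 2 alone and 7 higher there at an unadjusted p under 0.05. A pair of variable segments stood among the 10 largest rises under the naming rule. For these ranks the rule takes only genes that passed, averaged at least 4 FPKM and had groups without overlap. Igkv12-46 was at 58.4, 70.9 and 59.9 against 1.73, 8.8 and 7.65 FPKM and Ighv9-3 at 70.2, 95.7 and 86.7 against 2.4, 18.7 and 17.6. Immunoglobulin segments are similar in sequence, so the values of single segments are uncertain.

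**Figure D3:**
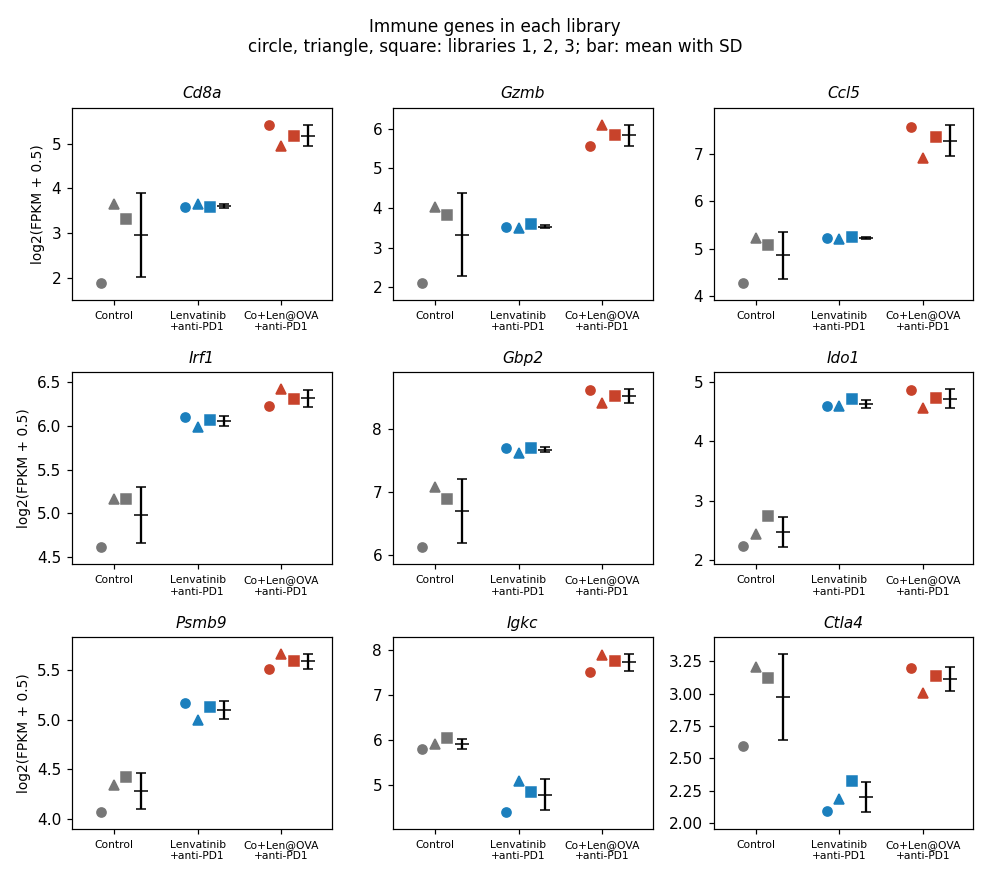
Values of 9 immune genes in each library, as log2(FPKM + 0.5), by group, with the mean and SD of 3 libraries. For Cd8a, Gzmb, Ccl5, Irf1, Gbp2, Ido1, Psmb9 and Igkc all Co+Len@OVA+anti-PD1 libraries lie above all Control libraries, and for Ctla4 the 2 groups overlap.

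Chemokines, the secreted proteins that guide leukocytes, were higher in groups that attract different cells. Ccl5, released by cytotoxic cells among others, was at 190.2, 121 and 164 against 19, 36.8 and 33.2 FPKM (log2 difference 2.42 ± 0.25 SE, adjusted p = 5.18e-04). Ccl4, which attracts T cells and monocytes, was at 36.2, 34 and 36.6 against 2.83, 6.23 and 5.3 FPKM (log2 difference 2.83 ± 0.22 SE, adjusted p = 1.80e-04). Cxcl9, an interferon-induced ligand of CXCR3, a receptor of activated T cells, was at 149, 120.0 and 137 against 24.5, 55 and 47.5 FPKM. No treated value of these 3 genes overlapped a Control value. Ccl7, which attracts monocytes, was at 8.55, 9.73 and 8.8 against 0.11, 1.2 and 0.802 FPKM and was among the 10 largest rises under the naming rule (log2 difference 3.11 ± 0.51 SE, adjusted p = 0.00367). The receptor Cxcr3 was at 7.78, 5.1 and 6.78 against 0.487, 4.14 and 3.25 FPKM and did not pass (adjusted p = 0.0718). Ccl21a, a chemokine of lymphatic vessels and lymphoid tissue with near-identical gene copies and therefore uncertain, was at 13, 2.59 and 6.82 against 0.4, 0.183 and 0.691 FPKM. It was highest in treated library 1, the one with most adipocyte and neural marker signal, whose part in this was not tested, and it did not pass without that library or library 3 (adjusted p = 0.0626 and 0.0651). Of 23 chemokine and receptor genes 14 rose and 0 fell (median 1.68), and in libraries 1 and 2 alone 0 passed and 13 were higher at an unadjusted p under 0.05.

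The receiving end of interferon signalling differed between its parts. Ifngr1, the ligand-binding chain of the interferon gamma receptor, was at 53.6, 47.1 and 49.1 against 32.6, 50.4 and 46.9 FPKM, and its kinase Jak2 at 36.2, 40 and 37.1 against 45.7, 36.9 and 41.9 (adjusted p = 0.257 and 0.255). Irf1, a transcription factor induced by interferon gamma, was at 74.5, 85.1 and 78.6 against 23.9, 35.4 and 35.3 FPKM (log2 difference 1.34 ± 0.14 SE, adjusted p = 6.00e-04). The feedback inhibitor Socs1 was at 21, 22.8 and 22.3 against 3.73, 8.08 and 6.56 FPKM (log2 difference 1.83 ± 0.22 SE, adjusted p = 0.00105). For Irf1 and Socs1 the groups did not overlap, whereas receptor and kinase values did. Of 15 genes of the chain 9 rose and 0 fell (median 0.51). From libraries 1 and 2 alone 0 passed, and 9 were higher at an unadjusted p under 0.05. Ifnb1, which encodes interferon beta, was listed at 0 in all 6 libraries.

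Among induced effectors 15 of 18 rose and 0 fell, with a median of 1.36. Ido1, an enzyme that breaks down tryptophan and restrains T cells, was at 28.7, 23 and 25.9 against 4.21, 4.9 and 6.17 FPKM (log2 difference 2.24 ± 0.13 SE, adjusted p = 5.62e-05) and had the smallest p of all risen genes in libraries 1 and 2 alone (adjusted p = 0.022). Ubd, which encodes the ubiquitin-like protein FAT10, was at 60.1, 66.3 and 65.7 against 4.33, 9.87 and 9.28 FPKM (log2 difference 3.03 ± 0.26 SE, adjusted p = 2.46e-04). Bst2, the antiviral tetherin, was at 231, 237 and 232 against 95.7, 108 and 109.6 FPKM, with an adjusted p of 6.04e-05 in 9 libraries and 0.0428 in libraries 1 and 2. For all 3 the treated libraries lay close together and well above the controls. Mx1, an antiviral GTPase, was at 3.08, 3.58 and 2.59 against 2.34, 4.53 and 3.84 FPKM (adjusted p = 0.594). In libraries 1 and 2 alone 2 of the 18 passed and 13 were higher at an unadjusted p under 0.05.

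Gbp2, a guanylate-binding protein that attacks intracellular pathogens, was at 392, 339 and 367 against 69, 135 and 118 FPKM (log2 difference 1.82 ± 0.22 SE, adjusted p = 9.32e-04), and Irgm1, an immunity-related GTPase, at 51.1, 44.8 and 46.3 against 13.8, 29.8 and 25.3 (log2 difference 1.10 ± 0.24 SE, adjusted p = 0.0113). Their promoters are shown because these were the first members of the list that changed and had a promoter. Both hold the paired half-sites that the interferon-stimulated response element is built from. The windows run from 250 bases before to 50 after the RefSeq start in GRCm38.p6, at chr3:142620413-142620712, plus strand, and chr11:48871371-48871670, minus strand, and capitals mark TTTC, any 2 bases and TTTC on either strand (overlapping matches merged):
Gbp2: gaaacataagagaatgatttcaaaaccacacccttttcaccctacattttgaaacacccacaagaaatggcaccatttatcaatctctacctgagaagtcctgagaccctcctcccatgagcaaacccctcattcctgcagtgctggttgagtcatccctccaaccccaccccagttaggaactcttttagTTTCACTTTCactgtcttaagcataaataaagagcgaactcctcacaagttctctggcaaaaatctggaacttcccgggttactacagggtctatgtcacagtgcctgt
Irgm1: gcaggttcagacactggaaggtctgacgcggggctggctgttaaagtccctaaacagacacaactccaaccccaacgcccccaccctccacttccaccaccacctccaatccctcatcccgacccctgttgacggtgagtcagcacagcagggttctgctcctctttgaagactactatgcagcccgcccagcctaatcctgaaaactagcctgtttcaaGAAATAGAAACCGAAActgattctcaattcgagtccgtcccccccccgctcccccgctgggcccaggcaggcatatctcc
Of the 18 effectors 14 had a promoter in the RefSeq table, and 11 of the 14 held this pattern, against 3.49% of all 27025 promoters. The pattern TTCNNNGAA of gamma-activated sites was in 4 of the 14 and in 8.47% of all promoters. Neither Gbp2 nor Irgm1 held it in this window, and Gbp5, Gbp7, Igtp and Bst2 did. A match is a description of the letters and shows no binding.

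Presentation on MHC class I, by which cells display peptides to CD8 T cells, was higher at the steps that make and load peptides. Psmb9, an immunoproteasome subunit, was at 45.2, 50 and 47.9 against 16.4, 19.9 and 21 FPKM (log2 difference 1.30 ± 0.10 SE, adjusted p = 1.34e-04) and passed in libraries 1 and 2 alone (adjusted p = 0.0436). Tap1 and Tap2, the peptide transporter, were at 94.2, 99.1 and 96.6 against 46.4, 55.3 and 55.7 and 33.1, 33 and 32.7 against 8.76, 16.5 and 14.4 FPKM. B2m, the light chain common to class I molecules, differed less, at 2651, 2413 and 2536 against 1977, 2197 and 2128 FPKM (log2 difference 0.27 ± 0.07 SE, adjusted p = 0.0219). B2m did not pass under median-of-ratios scaling, nor without replicate 1 or 3 of the nanocluster group or Control replicate 3 (adjusted p = 0.0639, 0.0782 and 0.0605). The class I heavy chain H2-K1, one of several similar genes and uncertain for that reason, was at 366, 286 and 329 against 138, 291 and 242 FPKM and did not pass (adjusted p = 0.094), with Control library 2 above treated library 2. Of 13 class I genes 11 rose and 0 fell (median 0.87), and 1 passed in libraries 1 and 2 alone, with 9 higher at an unadjusted p under 0.05. Class II genes, used by dendritic cells, B cells and macrophages, gave 2 risen of 11, H2-DMb1 and H2-Ob (median 0.67), with 0 in libraries 1 and 2 alone and also 0 there at an unadjusted p under 0.05. Ciita, the master activator of class II, was at 8.23, 8.84 and 8.87 against 1.15, 6.22 and 4.97 FPKM (adjusted p = 0.0692) and H2-Aa at 255, 235 and 250.5 against 96.3, 278 and 224 (adjusted p = 0.327). The class II count was 8 without Control replicate 2, 4 without Control replicate 1 and 0 without replicate 3 of the nanocluster group.

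Of the 4 leading macrophage markers none passed, and 3 overlapped between the groups. Adgre1, which encodes the mouse macrophage antigen F4/80, was at 21.2, 13 and 17.6 against 1.3, 17.1 and 12.4 FPKM, and Csf1r, the receptor of the growth factor CSF1, at 43, 30.7 and 37.3 against 7.8, 53 and 36.2 (adjusted p = 0.226 and 0.488). C1qa, a chain of complement C1q made by macrophages, was at 407, 336 and 373 against 78, 310.1 and 225 FPKM without overlap, and Cd68, a lysosomal protein of macrophages, at 80.2, 74.2 and 83.2 against 19, 77.7 and 54.3 (adjusted p = 0.0867 and 0.151). Control library 1 was below the other controls for these 4 genes. Of 16 macrophage genes 2 rose and 2 fell (median 0.92), with 0 in libraries 1 and 2 alone (1 higher and 2 lower at an unadjusted p under 0.05). Those risen were Trem2 and Gpnmb, both of lipid-handling macrophages, and those fallen were Arg1 and Spp1, which hepatocytes and bile duct cells also express. Gpnmb was at 36, 36.4 and 36.3 against 14.9, 16.4 and 17.4 FPKM (log2 difference 1.14 ± 0.10 SE, adjusted p = 2.97e-04). The number risen was 6 without Control replicate 2, 4 without Control replicate 1, and 1 without replicate 1 or replicate 3 of the nanocluster group or without Control replicate 3, fits in which Trem2 did not pass (adjusted p = 0.0851, 0.0817 and 0.0559).

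Genes of the resident Kupffer cell, the macrophage of liver sinusoids, moved in opposite directions. Clec4f, a lectin restricted to Kupffer cells in mice, was at 0.0758, 0.179 and 0.181 FPKM in the nanocluster group and 2.72, 3.51 and 3.3 in Control (log2 difference -2.51 ± 0.12 SE, adjusted p = 2.18e-05) and passed in libraries 1 and 2 alone (adjusted p = 0.0305). Vsig4, a complement receptor of Kupffer cells, was at 1.06, 1 and 1.05 against 1.45, 2.73 and 2.61 FPKM (log2 difference -0.81 ± 0.19 SE, adjusted p = 0.0143). Marco, a scavenger receptor of Kupffer cells and other macrophages, was higher instead, at 13, 32.7 and 24.5 against 3.42, 3.98 and 4.67 FPKM (log2 difference 2.32 ± 0.29 SE, adjusted p = 0.00117). For each of these 3 genes the groups did not overlap, though Vsig4 did not pass without Control replicate 3 (adjusted p = 0.051). Timd4, a receptor for dying cells, stayed under 1 FPKM in all 6 libraries (adjusted p = 0.652). Of 7 genes of the list 2 rose (Marco and the iron exporter Slc40a1) and 3 fell (Clec4f, Vsig4 and the complement gene C6), and in libraries 1 and 2 alone 1 fell. Over the fits that leave out 1 library 1 to 2 rose and 1 to 4 fell, with 1 fallen without Control replicate 3 and 2 without replicate 3 of the nanocluster group.

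Neutrophil genes gave few calls in either direction, near the shares over all genes (20.9% higher and 12.7% lower). S100a8, a calcium-binding protein abundant in neutrophils, was at 40.3, 16.9 and 29.8 against 27, 21.9 and 24.2 FPKM (adjusted p = 0.695), with the treated values on both sides of Control. Retnlg, a resistin-like gene of mature neutrophils named outside the rule, was at 2.51, 2.69 and 2.85 against 8.93, 44.3 and 29 FPKM (log2 difference -2.87 ± 0.49 SE, adjusted p = 0.00419), so that the highest treated value lay under the lowest Control value. Il1b, an inflammatory cytokine of myeloid cells, was at 9.47, 12.3 and 11.5 against 1.63, 3.21 and 3.08 FPKM (log2 difference 1.92 ± 0.20 SE, adjusted p = 5.89e-04). Of 13 neutrophil genes 2 rose (Il1b and Csf3r) and 2 fell (Retnlg and Ly6g) (median 0.17), with 0 in libraries 1 and 2 alone (1 higher and 1 lower at an unadjusted p under 0.05). Under median-of-ratios scaling 1 rose and 3 fell. Over the fits that leave out 1 library, 1 to 3 rose and 1 to 3 fell, with 1 in each direction without replicate 3 of the nanocluster group or Control replicate 3.

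Components that sense DNA in the cytosol were largely within the spread. The sensor Cgas and its adaptor Sting1 did not pass (adjusted p = 0.0728 and 0.0671), and the kinase Tbk1 was at 16.4, 15.6 and 15.6 against 12.2, 16.7 and 14.9 FPKM (adjusted p = 0.369). Irf3, the factor that TBK1 activates, was at 15, 13.5 and 13.1 against 7.93, 11.3 and 9.97 FPKM (log2 difference 0.50 ± 0.13 SE, adjusted p = 0.0208). Zbp1, a sensor of left-handed nucleic acid that interferons induce, was at 66.5, 40.5 and 54.3 against 8.12, 15.5 and 14 FPKM (log2 difference 2.08 ± 0.25 SE, adjusted p = 0.00104) and had the largest log2 difference of the 3 risen. Of 10 genes 3 rose (Zbp1, Irf3 and Ikbke) and 1 fell (Aim2, a sensor of inflammasomes), with 0 in libraries 1 and 2 alone (3 higher and 1 lower at an unadjusted p under 0.05). The number risen was 6 without Control replicate 2 and 1 without replicate 3 of the nanocluster group, and Irf3 did not pass without its replicate 1 or 3 (adjusted p = 0.0631 and 0.0503).

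Genes of blood vessels were measured because lenvatinib acts on receptors of growing vessels. Pecam1, an adhesion molecule of all endothelium, was at 12.8, 7.32 and 10.3 against 1.78, 7.98 and 6.03 FPKM (adjusted p = 0.125), with Control library 2 above treated library 2. Esam, an endothelial junction protein, differed evenly, at 20.6, 20.7 and 20.7 against 10.2, 13.2 and 12.9 FPKM (log2 difference 0.76 ± 0.09 SE, adjusted p = 0.00109). Of 10 endothelial genes 3 rose (Esam, Egfl7 and Robo4) and 0 fell (median 1.00), with 0 in libraries 1 and 2 alone and 2 higher there at an unadjusted p under 0.05. The count was 6 without Control replicate 2, 5 without replicate 2 of the nanocluster group, and 1 without its replicate 1 or 3. Lyve1, a receptor of sinusoidal and lymphatic endothelium, was at 1.77, 0.644 and 1.15 against 1.19, 7.55 and 5.56 FPKM (adjusted p = 0.0868), and of 6 sinusoidal genes 1 rose (Stab1) and 0 fell, but 4 fell without Control replicate 1. Of the sinusoidal list 0 passed in libraries 1 and 2 alone, and 0 were higher or lower there at an unadjusted p under 0.05.

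Of 13 genes of vessel growth 6 rose and 0 fell (median 0.76). Angpt2, which loosens vessels by opposing angiopoietin 1, was at 8.82, 7.03 and 8.02 against 1.09, 2.54 and 2.46 FPKM (log2 difference 1.80 ± 0.26 SE, adjusted p = 0.00199). Apln, a peptide secreted by endothelial tip cells, was at 6.92, 5.95 and 6.55 against 0.707, 1.83 and 1.55 FPKM (log2 difference 1.96 ± 0.28 SE, adjusted p = 0.00204). Treated values of both genes were over 2-fold above the highest control. Vegfa, the main growth factor of vessels, was at 56, 64.2 and 59.1 against 96.7, 58.1 and 67.2 FPKM, and its receptor Kdr, a target of lenvatinib, at 2.35, 1.33 and 1.68 against 0.221, 1.19 and 0.997 (adjusted p = 0.221 and 0.0888). Of 9 lenvatinib target kinases 0 rose and 1 fell. This was Fgfr4, the FGF receptor of hepatocytes, at 6.66, 7.9 and 7.34 against 15.5, 12.1 and 13.3 FPKM (log2 difference -0.85 ± 0.11 SE, adjusted p = 0.00107). The number of kinases fallen was 2 under median-of-ratios scaling, under scaling by the upper quartile of tested genes, and without Control replicate 1. With libraries 1 and 2 alone 0 genes of either list passed (4 vessel growth genes higher and 1 kinase lower at an unadjusted p under 0.05). The count of risen vessel growth genes was 3 without replicate 1 and 2 without replicate 3 of the nanocluster group.

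Stromal genes differed by kind. Acta2, the smooth muscle actin of pericytes and activated fibroblasts, was at 57.4, 33.1 and 45.1 against 14.6, 23 and 19.7 FPKM (log2 difference 1.21 ± 0.32 SE, adjusted p = 0.0228), and Tagln, another contractile protein, at 34.3, 22.8 and 27.4 against 9.24, 10.5 and 10.4 (log2 difference 1.42 ± 0.19 SE, adjusted p = 0.00162). Col1a1 and Col3a1, the main fibrillar collagens, were at 211, 116 and 167 against 71.7, 149.7 and 123 and 93.6, 32.8 and 64 against 28.5, 86.2 and 65.8 FPKM (adjusted p = 0.473 and 0.932). Contractile genes were apart between the groups and collagens overlapped. Acta2 did not pass without replicate 1 or 3 of either group (adjusted p = 0.0705 and 0.0697 for the nanocluster group, 0.0588 and 0.0558 for Control). Timp1, an inhibitor of matrix proteases, was at 113, 69.8 and 91.2 against 33.5, 32.9 and 35.3 FPKM (log2 difference 1.39 ± 0.16 SE, adjusted p = 7.47e-04). In the list of 10 fibroblast and pericyte genes 4 rose (Acta2, Tagln, Thy1 and Rgs5) and 0 fell, with 2 risen without replicate 1 or replicate 3 of the nanocluster group, and in the list of 12 collagens and matrix genes 1 rose (Tnc) and 1 fell (Fn1). Of the matrix list 0 rose without replicate 1 or 3 of the nanocluster group or Control replicate 2 or 3. From that list 0 fell without Control replicate 2 or 3, replicate 2 or 3 of the nanocluster group, or the third Lenvatinib+anti-PD1 library, and 2 fell without Control replicate 1. From libraries 1 and 2 alone 0 of either list passed, with 3 and 0 higher at an unadjusted p under 0.05.

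The largest falls were in genes of the differentiated hepatocyte. Ahsg, the plasma protein fetuin-A, was at 6.36, 8.2 and 10.5 FPKM in the nanocluster group and 429, 171 and 267 in Control (log2 difference -4.96 ± 0.31 SE, adjusted p = 6.24e-05). Ttr, which carries thyroid hormone in plasma, was at 66.5, 80.7 and 72.7 against 311, 167 and 221 FPKM (log2 difference -1.62 ± 0.20 SE, adjusted p = 0.00105), and Alb at 629.8, 908 and 781 against 3386, 1686 and 2285 (log2 difference -1.62 ± 0.24 SE, adjusted p = 0.00229). The treated values were lowest for all 3, and the Control values ran in the order library 1, 3, 2. Alb thus remained among the abundant mRNAs in every treated library, while Ahsg did not. Of 15 plasma protein genes 14 fell and 0 rose, with a median of -3.66, and 2 passed in libraries 1 and 2 alone and 13 were lower there at an unadjusted p under 0.05. Apoc3 and Gc, which encode an apolipoprotein and the vitamin D-binding protein, fell by 4.43 and 4.23 on the log2 scale.

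Enzymes of amino acid and urea metabolism fell in 13 of 14 cases and rose in 0 (median -3.17), and 4 of them passed in libraries 1 and 2 alone. Mat1a, which makes S-adenosylmethionine in liver, had the largest fall of all genes under the naming rule, at 1.13, 1.36 and 1.96 against 118, 33.3 and 61.3 FPKM (log2 difference -5.00 ± 0.39 SE, adjusted p = 1.69e-04). Cps1, the entry enzyme of the urea cycle, was at 0.521, 0.599 and 0.913 against 21.6, 10.6 and 14.8 FPKM (log2 difference -3.74 ± 0.23 SE, adjusted p = 6.24e-05). For Mat1a and Cps1 the treated values lay far under every control, which differed over 2-fold among themselves. Arg1, the arginase of the urea cycle and of some macrophages, differed least of these, at 64.8, 85.5 and 76.3 against 115, 108 and 108 FPKM (log2 difference -0.55 ± 0.10 SE, adjusted p = 0.00596).

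All 13 cytochrome P450 and bile acid genes fell (median -2.26), with 1 passing in libraries 1 and 2 alone and 11 lower there at an unadjusted p under 0.05. Cyp3a11, a drug-metabolising P450 with similar neighbours and uncertain for that reason, was at 1.02, 1.07 and 1.46 against 42.7, 11.2 and 21.8 FPKM (log2 difference -3.74 ± 0.40 SE, adjusted p = 5.88e-04). Cyp7a1, the rate-limiting enzyme of bile acid synthesis, was at 0.0578, 0.112 and 0.103 against 2.24, 0.4 and 1.03 FPKM, and Slc10a1, the bile acid importer NTCP, at 0.461, 0.412 and 0.492 against 14.6, 4.04 and 7.62 (log2 difference -3.11 ± 0.36 SE, adjusted p = 8.06e-04). Every treated value lay under every Control value for these genes, and Cyp7a1 did not pass without replicate 3 of the nanocluster group (adjusted p = 0.0535). Fabp1, the liver fatty acid carrier, was at 3.25, 6.25 and 5.25 against 17.4, 17 and 20.3 FPKM (log2 difference -1.83 ± 0.20 SE, adjusted p = 6.55e-04). Of 12 fatty acid oxidation genes 7 fell and 0 rose (median -0.32), with 1 passing in libraries 1 and 2 alone and 4 lower at an unadjusted p under 0.05. Without replicate 3 of the nanocluster group 4 fell. Cpt1a, which admits fatty acids to mitochondria, was at 14, 13.1 and 13 against 10.4, 14.7 and 13.7 FPKM (adjusted p = 0.743).

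Transcription factors of the hepatocyte divided into those that did not pass and those that fell. Hnf4a, which governs much of the hepatocyte programme, was at 25.4, 29.2 and 26.4 FPKM in the nanocluster group and 27.3, 29 and 27.9 in Control (log2 difference -0.06 ± 0.07 SE, 95% interval -0.21 to 0.10, adjusted p = 0.548). Cebpa was at 29, 26 and 27.6 against 20.1, 28 and 25.4 FPKM (95% interval -0.12 to 0.47, adjusted p = 0.31) and Foxa2 at 39.4, 58 and 48.8 against 45.1, 31.6 and 34.5 (95% interval 0.00 to 0.78, adjusted p = 0.106). The groups overlapped for all 3. The nuclear receptor Nr1i2, the xenobiotic sensor PXR, was at 0, 0.0834 and 0.0402 against 3.42, 1.25 and 2.41 FPKM (log2 difference -2.33 ± 0.26 SE, adjusted p = 7.05e-04), listed at 0 in treated library 1. Nr1h4, the bile acid receptor FXR, was at 0.592, 0.819 and 0.547 against 3.29, 2.45 and 3.24 FPKM (log2 difference -1.60 ± 0.14 SE, adjusted p = 2.76e-04). Of 13 factors 7 fell and 0 rose (median -0.54), with 0 passing in libraries 1 and 2 alone and 7 lower there at an unadjusted p under 0.05.

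Acute phase proteins, which the liver secretes in inflammation, fell in 12 of 13 cases and rose in 1 (median -2.50). In libraries 1 and 2 alone 1 passed, and 1 was higher and 12 lower at an unadjusted p under 0.05. Saa3, a serum amyloid A made by macrophages and adipocytes as well, was the one that rose, at 16.2, 24 and 20.2 against 7.12, 2.32 and 4.01 FPKM (log2 difference 2.15 ± 0.33 SE, adjusted p = 0.0027). Saa1, the hepatocyte form, which resembles Saa2 and is uncertain for that reason, was at 0.345, 0.33 and 0.519 against 16.9, 1.64 and 6.6 FPKM (log2 difference -2.84 ± 0.63 SE, adjusted p = 0.0114). The order of the groups was thus opposite for these serum amyloids, without overlap in either. Lcn2, an iron-scavenging lipocalin, was at 7.97, 5.13 and 6.41 against 43.2, 32.7 and 35.4 FPKM (log2 difference -2.44 ± 0.15 SE, adjusted p = 6.52e-05). Lbp, the plasma protein that binds bacterial lipopolysaccharide, was at 33.4, 32 and 34.2 against 118, 118 and 116 FPKM, (adjusted p = 3.74e-06, and 0.0192 in libraries 1 and 2). Lbp was nearly even within both groups, unlike Saa1, which spanned over 10-fold among the controls. Of 17 complement genes 3 rose and 8 fell (median -0.49). C9 and C3, of the terminal and central steps, were at 0.231, 0.36 and 0.338 against 4.02, 1.49 and 3.08 and 133, 169 and 149.9 against 245, 247 and 249 FPKM. The interferon-inducible C2 and Cfb were at 26.7, 19.9 and 22.5 against 12.8, 14.4 and 14.1 and 102, 93.7 and 98.2 against 74.7, 76.8 and 77.3 FPKM and rose, as did C4b. With libraries 1 and 2 alone 2 complement genes fell and 0 rose (7 and 3 at an unadjusted p under 0.05), and 6 rose without Control replicate 1 or 2.

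Beside these falls, the hepatoma marker Afp fell (log2 difference -0.76 ± 0.08 SE, adjusted p = 5.89e-04), and the Kupffer cell gene Clec4f was at or below 0.181 FPKM in every treated library. Among the controls Clec4f was lowest in library 1, at 2.72 FPKM, as were the macrophage genes Adgre1 and Csf1r, while Ahsg was highest there. The share of surrounding liver in each piece was not tested. Of 10 hepatoma and oncofetal genes 6 fell and 0 rose (median -0.43). Of 6 genes of bile duct cells 5 fell (median -1.03). Krt19, a keratin of bile ducts, was at 93.8, 61.4 and 78.4 against 197, 147 and 162 FPKM (log2 difference -1.12 ± 0.16 SE, adjusted p = 0.0019), and Sox9, a progenitor factor, at 22.1, 18.2 and 21.5 against 62.4, 38.1 and 46.2 (log2 difference -1.20 ± 0.16 SE, adjusted p = 0.00161). All treated values were under all controls. From libraries 1 and 2 alone 0 passed in both lists (5 and 5 lower at an unadjusted p under 0.05). Igfbp1, a secreted IGF-binding protein of liver, was at 1657, 1363 and 1535 against 4040.4, 3424 and 3600.3 FPKM (log2 difference -1.28 ± 0.10 SE, adjusted p = 1.38e-04).

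**Figure D4:**
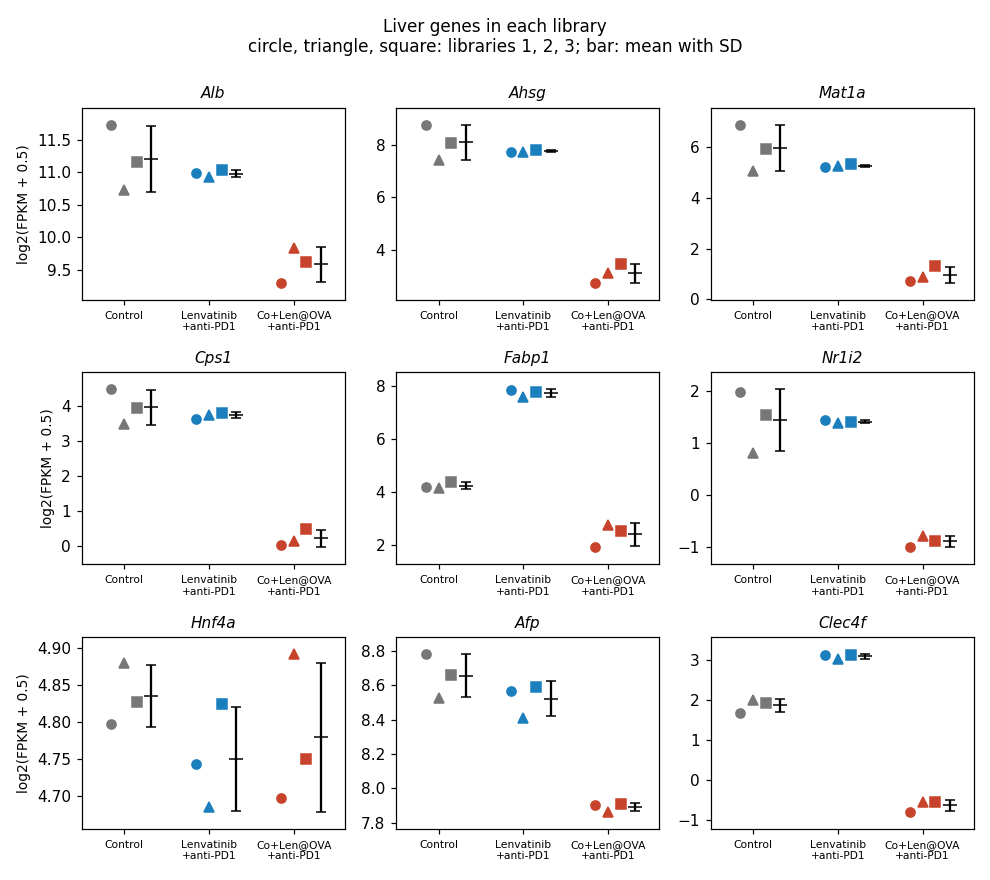
Values of 9 liver genes in each library, as log2(FPKM + 0.5), by group, with the mean and SD of 3 libraries (vertical scales differ). Alb, Ahsg, Mat1a, Cps1, Fabp1, Nr1i2, Afp and Clec4f are lower in all Co+Len@OVA+anti-PD1 libraries than in all Control libraries, and Hnf4a, on a narrow scale, overlaps.

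Haem and iron genes rose and fell in equal number, 4 and 4 of 16, with 0 passing in libraries 1 and 2 alone (3 higher and 4 lower at an unadjusted p under 0.05). Hmox1, haem oxygenase 1, which breaks down haem, was at 441, 367 and 419 against 43.6, 96.5 and 89.7 FPKM (log2 difference 2.49 ± 0.27 SE, adjusted p = 6.50e-04). Fth1 and Ftl1, the ferritin subunits that store iron, were at 877, 1017 and 970.2 against 627, 617 and 622 and 2429, 2135 and 2306 against 1357, 1297 and 1354 FPKM. Tfrc, the receptor that imports transferrin-bound iron, fell, at 5.71, 8.66 and 7.07 against 13.9, 13.3 and 13.2 FPKM (log2 difference -0.88 ± 0.13 SE, adjusted p = 0.00192), as did the plasma carrier of iron, Trf, at 438, 526 and 486 against 1119, 867 and 971. Genes of haem breakdown and iron storage were thus higher in every treated library and the importer lower. Red cell and platelet genes rose in 7 of 8 cases (median 2.13), with 0 in libraries 1 and 2 alone and 7 higher at an unadjusted p under 0.05. Alas2, the first enzyme of haem synthesis in red cell precursors, was at 5.83, 7.39 and 6.83 against 1.22, 2.77 and 2.36 FPKM, and Pf4, a platelet chemokine, at 44.9, 35.8 and 41.8 against 8.02, 11.3 and 12.3. Every treated value was over 2-fold above the highest control for both. The part of blood in the Hmox1 result was not tested.

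Genes of metal handling were compared because the series names a metal-based therapy. Mt1 and Mt2, the metallothioneins, which bind zinc and copper and are induced by metals through MTF1, were at 179, 174 and 186 against 991, 418 and 602 and 251, 249.7 and 265 against 1378, 526 and 744 FPKM (log2 difference -1.81 ± 0.26 SE, adjusted p = 0.00213 for Mt1). Every treated library was under every Control library, and the treated values of each gene differed by less than 10%. Mtf1 was at 2.4, 2.17 and 2.2 against 1.1, 1.91 and 1.62 FPKM (log2 difference 0.45 ± 0.15 SE, adjusted p = 0.0475), but did not pass under median-of-ratios scaling or without any 1 library other than Control library 2. The promoters of both metallothioneins are shown for the letters TGCNCNC of metal response elements, in capitals on either strand, with windows as above at chr8:94178839-94179138, plus strand, and chr8:94172368-94172667, plus strand:
Mt1: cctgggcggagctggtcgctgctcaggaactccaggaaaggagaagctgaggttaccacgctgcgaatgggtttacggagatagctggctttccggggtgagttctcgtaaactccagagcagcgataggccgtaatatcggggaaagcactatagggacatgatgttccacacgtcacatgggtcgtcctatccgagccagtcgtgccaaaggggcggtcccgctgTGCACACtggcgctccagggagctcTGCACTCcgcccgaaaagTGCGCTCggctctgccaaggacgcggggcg
Mt2: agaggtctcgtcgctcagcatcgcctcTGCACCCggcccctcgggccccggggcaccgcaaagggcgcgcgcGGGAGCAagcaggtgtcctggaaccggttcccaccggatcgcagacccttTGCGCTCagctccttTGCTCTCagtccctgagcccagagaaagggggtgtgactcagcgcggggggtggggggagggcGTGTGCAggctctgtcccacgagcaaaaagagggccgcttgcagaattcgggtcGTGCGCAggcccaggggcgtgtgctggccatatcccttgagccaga
Mt1 held 3 matches and Mt2 6. The pattern is short and looser than the element itself, so a match need not be a metal response element. Of all promoters 50.4% held it, against 7 of the 9 list members with a promoter in the table. Slc39a14, a zinc, iron and manganese importer, was at 8.45, 7.24 and 8 against 18.3, 15.4 and 16.9 FPKM (log2 difference -1.05 ± 0.08 SE, adjusted p = 1.69e-04), and Slc30a1, the zinc exporter that metals also induce, at 5.04, 6.06 and 5.53 against 6.35, 5.73 and 6.11 (adjusted p = 0.26). Of 11 metal genes 1 rose and 5 fell (median -0.19), with 0 in libraries 1 and 2 alone (0 higher and 5 lower at an unadjusted p under 0.05).

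Redox genes moved little as groups. Nfe2l2, which encodes the oxidative stress regulator NRF2, was at 39.7, 45.2 and 41.5 against 22.7, 39.8 and 34.5 FPKM and its target Nqo1 at 3.71, 5.43 and 4.42 against 5.87, 7.05 and 5.72 (adjusted p = 0.109 and 0.0583). The subunits of the enzyme that starts glutathione synthesis went opposite ways. Gclm, the modifier, was at 22.9, 23.9 and 23.5 against 14.5, 14 and 15.3 FPKM (log2 difference 0.66 ± 0.05 SE, adjusted p = 2.01e-04), and Gclc, the catalytic subunit, named outside the rule, at 26.1, 29.6 and 27.5 against 47.6, 46.2 and 47.7 (log2 difference -0.76 ± 0.06 SE, adjusted p = 2.46e-04). The groups were apart for both. Of 14 NRF2 pathway genes 3 rose (Gclm, Me1 and the NRF2 inhibitor Keap1) and 2 fell (Gclc and Gsta1) (median 0.09), and under median-of-ratios scaling 1 rose and 4 fell. Over the fits that leave out 1 library, 1 to 5 rose and 1 to 4 fell, with the most risen without Control replicate 2 and 1 in each direction without replicate 1 or 3 of the nanocluster group or Control replicate 3. The letters TGACNNNGC of antioxidant response elements were in 5 of 12 promoters of the list, Gclm among them, and in 12.5% of all promoters. Gpx4 and Acsl4, which oppose and favour ferroptosis, were at 97.6, 93.4 and 95.1 against 108, 94.3 and 96.4 and 21.3, 23 and 21.9 against 20, 27.5 and 24.8 FPKM (adjusted p = 0.496 and 0.425). Ptgs2, the inducible cyclooxygenase, was at 3.93, 3.74 and 3.29 against 1.59, 0.765 and 0.836 FPKM (log2 difference 1.44 ± 0.23 SE, adjusted p = 0.00317). Of 13 antioxidant and ferroptosis genes 4 rose (Ptgs2, Sod2, Prdx1 and Txn1) and 0 fell, but 1 rose under median-of-ratios scaling, 1 rose without replicate 2 or 3 of the nanocluster group or without Control replicate 3, and 0 passed in libraries 1 and 2 alone. In that fit 0 NRF2 pathway genes passed either, and at an unadjusted p under 0.05 it gave 1 higher in each list and 1 lower in the NRF2 list. Of 15 lysosome genes 5 rose, among them the protease Ctsd, and 1 fell (Ctsl), with 0 in libraries 1 and 2 alone (5 higher and 1 lower at an unadjusted p under 0.05), and 3 to 8 risen over the fits that leave out 1 library, fewest without any 1 replicate of the nanocluster group and most without Control replicate 2.

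Stress programmes differed from each other. Heat shock proteins rose in 6 of 10 cases and fell in 0 (median 0.67), with 1 passing in libraries 1 and 2 alone and 6 higher at an unadjusted p under 0.05. Hsph1, a co-chaperone of the HSP70 family, was at 39.1, 29.4 and 33.5 against 4.82, 7.46 and 6.99 FPKM (log2 difference 2.33 ± 0.16 SE, adjusted p = 9.47e-05), and Hspa8, the constitutive HSP70, at 554, 543 and 546 against 319, 348 and 347 (log2 difference 0.70 ± 0.06 SE, adjusted p = 2.57e-04). Hspa1a, an inducible HSP70 close in sequence to Hspa1b and uncertain for that reason, was at 10.6, 7.34 and 9.28 against 1.9, 1.06 and 2.26 FPKM. Treated and Control values were apart for all 3. Hspa5, the main chaperone of the endoplasmic reticulum, went the other way, at 189, 206 and 198 against 382, 267 and 309 FPKM (log2 difference -0.68 ± 0.12 SE, adjusted p = 0.00467), while Sdf2l1, another factor of that compartment, rose, at 26.2, 29.8 and 28.2 against 9.89, 14.4 and 14.6 (log2 difference 1.10 ± 0.14 SE, adjusted p = 0.00136). Of 12 chaperones of the endoplasmic reticulum 4 rose (Sdf2l1, Calr, Hyou1 and Creld2) and 2 fell (Hspa5 and Hsp90b1), with 0 in libraries 1 and 2 alone (3 higher and 2 lower at an unadjusted p under 0.05). Ddit3, the stress factor CHOP, was at 10.8, 9.11 and 10.5 against 47.8, 19.9 and 29.8 FPKM (log2 difference -1.54 ± 0.26 SE, adjusted p = 0.00407), while Atf4, which acts upstream of it, was at 67.8, 65.8 and 67.8 against 94.7, 57 and 72.2 (adjusted p = 0.57). Of 12 genes of the integrated stress response 1 rose (Atf5) and 3 fell (Ddit3, Trib3 and Ppp1r15a), with 0 in libraries 1 and 2 alone (1 higher and 2 lower at an unadjusted p under 0.05).

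**Figure D5:**
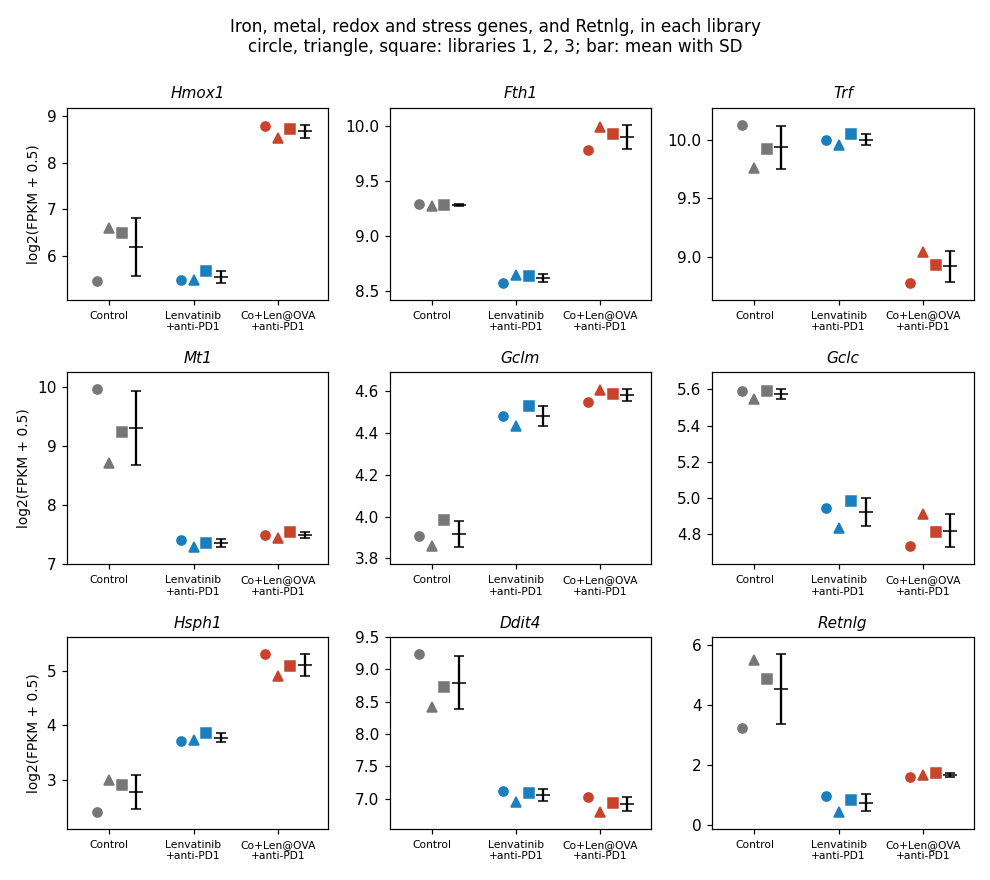
Values of 9 genes of iron, metal, redox and stress handling and of neutrophils in each library, as log2(FPKM + 0.5), by group, with the mean and SD of 3 libraries. Hmox1, Fth1, Gclm and Hsph1 are higher in all Co+Len@OVA+anti-PD1 libraries than in all Control libraries, and Trf, Mt1, Gclc, Ddit4 and Retnlg are lower.

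Hypoxia and glycolysis genes fell in 8 of 19 cases and rose in 2 (median -0.25). Car9, a carbonic anhydrase induced by HIF, was at 7.96, 7.56 and 8.33 against 17.5, 17.9 and 17.4 FPKM (log2 difference -1.10 ± 0.07 SE, adjusted p = 6.59e-05) and passed in libraries 1 and 2 alone (adjusted p = 0.0419). Bnip3, a mitophagy receptor, was at 107, 113 and 112 against 273, 197 and 215 FPKM (log2 difference -1.03 ± 0.11 SE, adjusted p = 6.15e-04) and Ddit4, an inhibitor of mTOR, at 129.9, 111 and 122 against 603, 343 and 423 (log2 difference -1.88 ± 0.18 SE, adjusted p = 4.10e-04). The glycolytic enzyme Ldha was at 413, 480.4 and 444 against 559, 503 and 525 FPKM and did not pass (adjusted p = 0.0572), but fell under median-of-ratios scaling. For all 4 genes the treated values lay under the Control values. The 2 that rose were Pfkl and P4ha1, of which 0 rose without replicate 3 of the nanocluster group. In libraries 1 and 2 alone 1 fell and 0 rose, with 7 lower and 1 higher at an unadjusted p under 0.05.

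Cell cycle genes rose in 9 of 17 cases and fell in 0 (median 0.47). Mki67, the proliferation antigen, was at 17.6, 25.4 and 20.9 against 15.4, 14.5 and 15.3 FPKM (log2 difference 0.47 ± 0.12 SE, adjusted p = 0.0176) and Mcm5, of the replicative helicase, at 19.2, 25.4 and 21.4 against 13.9, 14.6 and 14.6 (log2 difference 0.59 ± 0.09 SE, adjusted p = 0.00298). Ccnb1, the mitotic cyclin, was at 11.6, 15.6 and 13.9 against 14, 14 and 14.6 FPKM (adjusted p = 0.678). Treated library 2 was the highest of the 6 for each of the 3. Mki67 did not pass under median-of-ratios scaling or without replicate 3 of the nanocluster group (adjusted p = 0.0551). With libraries 1 and 2 alone 0 passed and 9 were higher at an unadjusted p under 0.05. Cdkn1a, the p53-induced cell cycle inhibitor p21, fell, at 47.8, 68.8 and 57.6 against 103, 87.5 and 91.2 FPKM (log2 difference -0.70 ± 0.13 SE, adjusted p = 0.00496), while Trp53 itself was at 31.1, 37.5 and 33.2 against 18.9, 27.8 and 25.2 and rose (adjusted p = 0.0256). Of 13 p53 genes 1 rose and 2 fell (Cdkn1a and Pmaip1), and Trp53 did not pass without replicate 2 or 3 of the nanocluster group. In libraries 1 and 2 alone 0 of the 13 passed (1 higher and 2 lower at an unadjusted p under 0.05). Fas, the death receptor for the Fas ligand of cytotoxic cells, was at 6.63, 6.68 and 7.27 against 2.59, 3.3 and 3.68 FPKM (log2 difference 1.01 ± 0.11 SE, adjusted p = 6.61e-04), and Casp8, the caspase it recruits, at 24.5, 26 and 24.1 against 18.8, 21 and 20 (log2 difference 0.32 ± 0.06 SE, adjusted p = 0.00614). Of 15 cell death genes 6 rose and 1 fell (median 0.26), with 6 higher and 0 lower at an unadjusted p under 0.05 in libraries 1 and 2 and 0 passing there.

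Ribosomal genes shifted by little but evenly. Cytosolic ribosomal protein genes fell in 10 of 14 cases and rose in 0 (median -0.38), 5 without replicate 3 of the nanocluster group, and 0 in libraries 1 and 2 alone with 6 lower at an unadjusted p under 0.05. Rpl3 was at 257, 257 and 257 against 356, 348 and 336 FPKM (log2 difference -0.43 ± 0.06 SE, adjusted p = 0.00133). Cholesterol and fatty acid synthesis gave 2 risen (Fdps and Cyp51) and 0 fallen of 14 as deposited, and 0 and 3 under median-of-ratios scaling, so no direction is given for it. Of 13 mitochondrially encoded mRNAs 2 rose (mt-Nd1 and mt-Nd3), 8 without Control replicate 1 and 1 without replicate 3 of the nanocluster group, and 1 under median-of-ratios scaling. From libraries 1 and 2 alone 0 lipid synthesis and 0 mitochondrial genes passed in limma (0 and 1 higher at an unadjusted p under 0.05). The mitochondrial share of FPKM was 12.3% to 12.8% in the nanocluster group and 11.1% to 13.2% in Control.

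The remaining lists gave few calls. Of 9 dendritic cell genes 3 rose, namely Xcr1, a marker of the dendritic cells that cross-present antigen, and Ccr7 and Fscn1, markers of migrating ones, with 1 risen without replicate 3 of the nanocluster group. Xcr1 was at 1.32, 1.07 and 1.07 against 0.0699, 0.315 and 0.175 FPKM (log2 difference 1.28 ± 0.18 SE, adjusted p = 0.0019). Of 8 leukocyte adhesion molecules 1 rose (Icam1) and 1 fell (Madcam1), with 4 risen without Control replicate 2 and 3 without Control replicate 1. Madcam1 did not pass in 6 of the 9 fits that leave out 1 library. Of 12 matrix proteases and inhibitors 3 rose (Timp1, Mmp10 and Plau) and 1 fell, which did not pass in 7 of the 9 fits that leave out 1 library. Of 12 TGF-beta pathway genes 2 rose (Smad7 and Inhba, 4 without Control replicate 2) and 1 fell (Tgfbr2). Of 12 Wnt targets and pericentral genes 1 rose (Axin2, 3 without replicate 1 of the nanocluster group) and 2 fell (Lgr5 and Rnf43). Of 13 nuclear genes of oxidative phosphorylation 2 rose (Cycs and Cox5a) and 1 fell (Atp5a1), and of 10 IGF axis genes 0 rose and 2 fell (Ghr and Igfbp1, of which 1 fell without replicate 3 of the nanocluster group or Control replicate 3). Of 9 adipocyte genes 2 rose, with 0 risen without replicate 1 or 3 of the nanocluster group or Control replicate 2, 1 without Control replicate 1 and 6 without Lenvatinib+anti-PD1 replicate 1. Of 9 muscle, 4 squamous and 2 pancreas genes 0 changed, but 1 squamous gene rose without Control replicate 1, 1 pancreas gene rose without replicate 1 of the nanocluster group, and 1 fell without its replicate 2 or Control replicate 2. Atp5a1 passed only without replicate 2 of the nanocluster group or Lenvatinib+anti-PD1 replicate 1 or 2 among the fits that leave out 1 library, and 1 of the 2 risen nuclear genes remained without replicate 2 or 3 of the nanocluster group or Control replicate 1 or 3. In libraries 1 and 2 alone 0 genes of these 11 lists passed, and at an unadjusted p under 0.05 the number of genes higher or lower was between 0 and 3 in each.

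Several of the 10 largest rises of all genes were carried by part of the nanocluster group. Gpm6a, which encodes a membrane protein of neurons, was at 19.4, 0.493 and 9.75 against 0.159, 0.209 and 0.361 FPKM. Ndrg4 and Pcsk1n, also neural, were at 19.8, 0.966 and 11.5 against 0.323, 0.377 and 0.606 and 16, 0.325 and 9.56 against 0.0587, 0.0177 and 0.113 FPKM. Library 1 and then library 3 carried these rises, and library 2 was near Control. Without replicate 1 of the nanocluster group the adjusted p of the 3 genes was 0.121, 0.0888 and 0.0949 in that order, and without replicate 3 it was 0.138, 0.109 and 0.116. None of the 3 passed without any 1 Control library either. The adipocyte gene Cfd, the protease adipsin, was at 141, 22.4 and 79.7 against 0.763, 0 and 4.09 FPKM, listed at 0 in Control library 2, and Car3 at 36.1, 8.95 and 22.8 against 1.26, 0.384 and 4.42. The same libraries led in Cfd, Car3 and the neural genes. Cfd did not pass without replicate 1 or 3 of the nanocluster group or Control replicate 2 (adjusted p = 0.0682, 0.0704 and 0.0519), nor Car3 without these or Control replicate 1 (0.0712, 0.0726, 0.053 and 0.0508). Ctrb1, a digestive enzyme of the pancreas, was at 0, 4.16 and 2.19 against 0, 0 and 0.0487 FPKM, so its signal sat in the other treated library, and it did not pass (adjusted p = 0.0766).

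The genes of smallest p in libraries 1 and 2 were chosen by a p that favours genes even within groups and apart between them. Their evenness and lack of overlap are therefore no separate result. Among those risen, Apol10b and Apol6, interferon-inducible apolipoproteins L, were at 14.8, 12.2 and 12.9 against 2.04, 2.47 and 3.05 and 12.2, 9.51 and 11.5 against 2.15, 2.87 and 2.78 FPKM (adjusted p in libraries 1 and 2 of 0.0224 and 0.0419). Gbp10 was at 29.6, 28.1 and 29 against 4.07, 6.39 and 6.27 FPKM (0.0347), with similar family members that make it uncertain. These 3 were over 3-fold higher in every treated library. Ube2l6, which conjugates ISG15, was at 26.9, 30.9 and 28.7 against 7.84, 10.2 and 9.55 FPKM (0.0419), and Mthfd2, a mitochondrial enzyme of folate metabolism, at 6.68, 7.59 and 6.61 against 2.07, 2.42 and 2.41 (0.042). Mthfd2 and Ube2l6 were even within both groups. Among those fallen stood Fmo5, a flavin monooxygenase of liver, at 0.972, 0.849 and 0.892 against 9.65, 8.17 and 8.33 FPKM (0.0192), and Gsta3, a glutathione transferase, at 15.2, 12.7 and 14.5 against 57.9, 56.8 and 58.8 (0.0224). Arg2, the mitochondrial arginase, was at 5.79, 4.34 and 4.91 against 27.2, 25.4 and 25.2 FPKM (0.0248). The values of each of these 8 genes were apart between the groups and differed less than 2-fold within each group.

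Setting the treatments side by side shows which of these differences free lenvatinib with the antibody shared. Set against Lenvatinib+anti-PD1 in the same limma fit, the nanocluster group had 2657 genes above (17.3%) and 1850 below (12.0%). Of the 18 induced effectors 3 were higher, and of the 18 T cell genes 12. Ido1 was at 23.7, 23.5 and 25.6 FPKM in Lenvatinib+anti-PD1, a difference of 0.08 ± 0.13 SE from the nanocluster group (95% interval -0.22 to 0.38, adjusted p = 0.658). Cxcl10, an interferon-induced chemokine named outside the rule, was at 97.6, 85.8 and 94.9 FPKM there, against 87.4, 119 and 102 in the nanocluster group and 11.6, 27.8 and 24.4 in Control (95% interval of the difference between treatments -0.52 to 0.81, adjusted p = 0.731). Ccl5 was at 37.2, 36.7 and 37.5 FPKM (2.05 ± 0.25 SE, adjusted p = 8.19e-04), Cd8b1 at 8.86, 8.07 and 10.4 (1.90 ± 0.47 SE, 0.0201) and Igkc at 20.8, 33.7 and 28.3 (2.93 ± 0.17 SE, 2.44e-05). In the limma fit of libraries 1 and 2 alone, the adjusted p between treatments was 0.0689 for Ccl5, 0.231 for Cd8b1 and 0.0155 for Igkc. Lenvatinib+anti-PD1 values of Ido1 and Cxcl10 were thus near those of the nanocluster group, and values of Ccl5, Cd8b1 and Igkc were near or below Control.

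Liver genes were lower than in Lenvatinib+anti-PD1. Of 15 plasma protein genes 13 were lower in the nanocluster group than in Lenvatinib+anti-PD1, of 14 amino acid and urea genes 12, and of 13 P450 and bile acid genes all. In Lenvatinib+anti-PD1 itself, 5 of these 13 P450 and bile acid genes were higher than in Control and 1 lower (median 1.31). All 13 mitochondrially encoded mRNAs were also lower than in Lenvatinib+anti-PD1. Against Control, 9 of these were higher in Lenvatinib+anti-PD1 (median 0.94), and in the nanocluster group 2 were higher and 0 lower (median 0.24). The 9 muscle genes had a median difference from Control of 1.89 in the nanocluster group and 5.66 in Lenvatinib+anti-PD1, and none passed between the treatments. Ahsg was at 212, 213 and 223 FPKM in Lenvatinib+anti-PD1, within the Control range. Fabp1 was at 228, 189 and 214 there, far above every Control value, so its difference between treatments also holds this excess over Control. The difference between treatments was -4.64 ± 0.31 SE for Ahsg and -5.32 ± 0.20 SE for Fabp1 (adjusted p = 3.93e-05 and 2.74e-06). Clec4f was at 8.22, 7.65 and 8.31 FPKM in Lenvatinib+anti-PD1 and Hsph1 at 12.6, 12.8 and 14.1, both above every Control value. Hmox1 was at 43.8, 44.2 and 50.9 there, within the Control range. By contrast Mt1 was at 169, 155 and 164 FPKM, Ddit4 at 138, 123 and 136, Ddit3 at 9.52, 10.1 and 9.72 and Igfbp1 at 1519.7, 1411 and 1562, each below Control in every library. The 95% interval of the difference between treatments was -0.46 to 0.74 for Mt1, -0.55 to 0.29 for Ddit4, -0.56 to 0.65 for Ddit3 and -0.21 to 0.24 for Igfbp1 (adjusted p = 0.704, 0.6, 0.901 and 0.911). Both treatments are compared with the same controls, so these values are given side by side and not as a correlation.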

How the data were processed

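Poly(A) RNA of tumour tissue was sequenced in 9 libraries after TRIzol extraction and a dUTP second-strand protocol, per the labels' protocols. The authors deposited 1 table of FPKM for 32761 genes, whose columns are named for the samples. Per the submitters' processing notes, fastp, StringTie and edgeR were used, with no version stated. The genome build and the strand setting of the counting were not given in the sources used here. No file gives counts. Low FPKM values did not step in whole fragments (17.2% to 24.4% of 3622 to 4421 values per library lay within 0.05 of a whole number at the best depth, where 10% would by the tolerance alone), so depth and counting intervals are unknown.

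FPKM were used as deposited, as log2(FPKM + 0.5), for the 15353 genes that averaged 0.5 FPKM or more over 9 libraries. limma 3.58.1 in R 4.3.3 was fitted to all 3 groups together (eBayes with trend and robust, 6 residual degrees of freedom). Tests are two-sided, p-values were adjusted by Benjamini-Hochberg over all genes tested at 0.05, and intervals are limma's 95% intervals. Differences between the 2 treatments come from the same fit. The fit was tested on simulated data in which all 9 libraries were independent, so that test does not cover the doubt about the third libraries. Overlap of groups means any treated value at or inside the range of the Control values or the reverse. Promoter sequences are from RefSeq (GRCm38.p6), matched by symbol.

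The comparison and the 55 gene lists were chosen with earlier results of these data known. Genes named are the first 4 members of each list, up to 3 further leading members that passed, the 10 largest rises and falls among genes of at least 4 FPKM whose groups did not overlap, and the 10 smallest p in each direction in libraries 1 and 2. Chosen after values were seen were the neural markers, Cd4, Tox, Retnlg, Gclc, Bst2, Cxcl10, Trf, genes named to spell out a count of 5 or fewer, the scaling by the upper quartile of tested genes, and the scaling of list counts. The other alternatives changed the libraries used, scaling, filter, pseudocount, variance model, replicate block and minimum fold. Some genes are not reported here.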

Additional observations from a re-analysis of the deposited data

How the results depend on the processing

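Of 221 genes with values or calls in the text, 180 passed in 9 libraries, and none of these changed direction under any alternative tried. The alternatives reuse the same libraries and these genes were taken as passed, so an unchanged direction is no separate support. All 5155 calls kept their sign in libraries 1 and 2. Genes higher and lower numbered 3209 and 1946 as reported, 17 and 63 in libraries 1 and 2 of each group, 1921 and 1358 in a fit of the 2 groups only, and 154 and 289 with a 1.5-fold minimum. Leaving out 1 library gave 1611 to 3666 higher and 1238 to 2104 lower, the fewest without replicate 3 of the nanocluster group and the most without Control replicate 2, and 1290 lower without Control replicate 3. Of the 180 named calls, 20 were kept in libraries 1 and 2, 162 under median-of-ratios scaling, 153 with no filter, 146 in the fit of 2 groups, 65 with the 1.5-fold minimum and 130 to 170 without 1 library. Calls were 2216 higher and 2699 lower under median-of-ratios scaling, 2746 and 2090 under upper quartile scaling, and 2499 and 2435 under scaling by the upper quartile of the genes tested, chosen after seeing the data. The cause of these changes was not tested, beyond the fewer libraries or the larger minimum in the fits named for them.

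The replicate numbers showed no clear pairing of the libraries. Deviations from the group means of same-numbered libraries of the nanocluster group and Control correlated at -0.165, -0.139 and 0.039. Deviations within a group depend on each other, so these values do not decide whether same-numbered libraries shared a batch. With a replicate block 2445 genes were higher and 1580 lower, and 158 of the 180 named calls were kept. Depth is unknown, so for genes listed at or near 0 a difference from the other group was read without a floor.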
